A study of Mus musculus with 3 samples.

Results

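Dlx and Msx genes encode homeodomain transcription factors, proteins that bind DNA through a homeobox-encoded domain. The 8 genes described here, Dlx1 to Dlx6 with Msx1 and Msx2, were taken as every non-control row of the scanner files that carried one of those symbols. They gave 9 probes of the 55680 probes on each array, and 8 of the 35019 genes and unnamed probes. Dlx1 had 2 probes and each of the other 7 genes had 1 probe.

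Total RNA came from the posterior frontal suture of C57BL/6 mice, the joint between the frontal bones, which closes by bone in the young mouse. There were 3 groups with 1 one-colour Agilent array each. The groups were postnatal day 5 (P5) Runx2+/+ (wild type), P7 Runx2+/+, and P7 Runx2+/-, heterozygous for loss of Runx2. Runx2 is the transcription factor that commits cells to the osteoblast fate. The labels do not give how many mice were behind an array, how the Runx2 allele was made, or how the tissue was cut. With 1 array per group no test between groups was possible, and every difference below compares arrays.

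In the mammalian skull, Dlx and Msx proteins act downstream of bone morphogenetic protein (Bmp) signals and bind similar DNA sites, where Msx proteins are known mostly as repressors and Dlx proteins as activators. Dlx genes lie in converging pairs, Dlx1 with Dlx2, Dlx3 with Dlx4 and Dlx5 with Dlx6, and each pair shares enhancers. Msx2 is known for its role in suture patency: a gain of its function closes sutures early in humans, and its loss leaves gaps in the skull vault.

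A probe is called detected here where the scanner software flagged it as well above background. Of the 8 genes, Dlx3, Dlx5, Msx1 and Msx2 were detected on all 3 arrays, and Dlx6 at P5 alone. Dlx1, Dlx2 and Dlx4 were undetected throughout. Between the P7 arrays, Dlx5 was 8.02-fold lower and Dlx3 2.80-fold lower with Runx2+/- than with wild type, while Msx1 and Msx2 lay within 1.08-fold of wild type. Between the wild-type arrays, the 4 genes measured on both were 1.52-fold to 1.80-fold higher at P7 than at P5.

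Levels are the scanner's processed signal, given with the error that the scanner software attached to that spot, and scaled levels are log2 of that signal minus the array's 75th percentile. That percentile of the signal was 52.1 for P5, 22.8 for wild type at P7 and 124.3 for Runx2+/-. The 3 arrays thus differed in overall brightness, and raw signals cannot be set against each other without scaling. Of all probes, 40.1%, 29.2% and 47.3% were detected on these arrays, in that order. The lowest scaled level of a detected probe, the floor, was -2.12, -0.69 and -3.25, so dim genes were measured least deeply in wild type at P7. Spots of the same probe within an array differed with an SD of 0.157, 0.177 and 0.115 on the log2 scale. That spread does not cover mice or RNA extracts, nor labelling, hybridisation and scan from array to array. For a difference between the P7 arrays this spot SD was 0.211, and different probes of 1 gene differed with an SD of 0.557; between the wild-type arrays these were 0.236 and 0.456. Runx2 itself had a scaled level of 2.38 at P5, 1.46 at P7 in wild type and 1.08 at P7 in Runx2+/-, a difference of -0.38 between the P7 arrays. That is the brightest of 3 Runx2 probes, and the other 2 were undetected in wild type at P7. For Runx2+/- against P5 wild type the Runx2 probes did not run alike: the brightest gave -1.30, another -0.98, and the remaining one was at least 0.74 higher. Which part of Runx2 the allele lacks is not given in the labels, so this probe does not check the genotype. The osteoblast markers (Col1a1, Bglap2, Ibsp, Sp7, Alpl, Dmp1) were detected on every array, 6 of 6. Of 6 suture mesenchyme markers, 5 were detected on every array and Axin2 on none.

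The probes that carry the 5 detected genes are shown by the first 30 of their 60 bases, as deposited, because each gene rests on that probe alone. Their positions are those of the files, on mm9.
Dlx3: ttttttagagcaaccaagagaagcaggtcc
Dlx5: gtgttgtgctggtttagaaatcagaaagaa
Dlx6: acagtgatcgaaaacggggaaatcaggttc
Msx1: acacttcctcctggttgtcgcttcctaaac
Msx2: cctgtccatctcttcccccagtatattttt
The Dlx3 probe lies at chr11:94986262-94986357 on the plus strand, where its 60 bases span 96 bases of the genome, and the Dlx5 probe at chr6:6828063-6828122 on the minus strand. The Dlx6 probe lies at chr6:6815092-6815151 on the plus strand. Msx1 is read at chr5:38212305-38212364 and Msx2 at chr13:53562318-53562377, both on the minus strand. The files place each probe in its gene's RefSeq transcript, and exons or untranslated regions were not looked up because no mm9 annotation was used here.

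**Figure D1:**
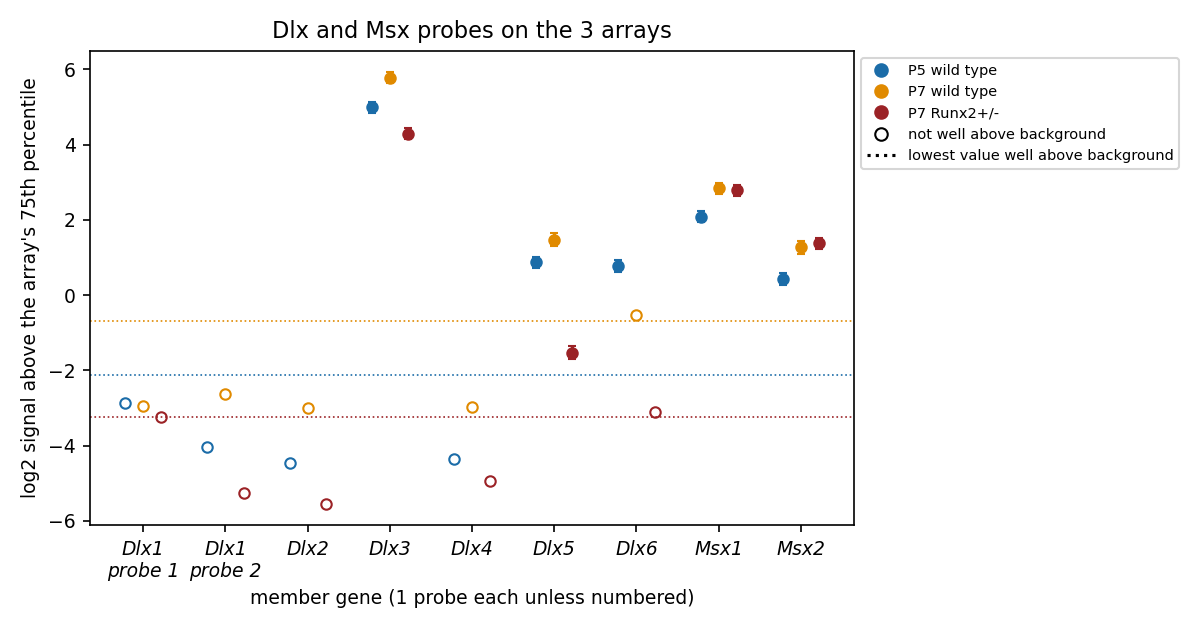
Scaled level (log2 of the processed signal minus the array's 75th percentile) of every Dlx and Msx probe, coloured by array (P5 and P7 wild type, P7 Runx2+/-), with the software error as bars and each array's floor as a dotted line. Filled points are detected and open points are not. Dlx3 sits highest on all 3 arrays, at 4.99, 5.78 and 4.29, and Dlx5 drops from 1.48 to -1.53 between the P7 arrays.

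Dlx5 is an activator of osteoblast genes, lies upstream of Runx2 and Sp7 in bone formation, and with Dlx6 sets lower-jaw identity. Its signal was 95.1 ± 9.92 at P5, 63.3 ± 7.22 at P7 in wild type and 43.1 ± 5.36 at P7 in Runx2+/-. On the scaled axis these were 0.87, 1.48 and -1.53. The Runx2+/- array was thus the low one, and both wild-type arrays were high. Dlx5 in Runx2+/- was 3.0 log2 units below wild type at P7, and 2.40 lower (5.26-fold) than at P5. Between the wild-type arrays it was 0.61 higher at P7. The differences from Runx2+/- exceeded the spread between spots and between probes of a gene.

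A gene has an order between 2 arrays where it was detected on both, or on 1 array with a bound. Of the 4 Dlx and Msx genes ordered between the P7 arrays, 2 were lower by 2-fold or more in Runx2+/-, beside 13.9% of all ordered genes, and 0 were higher, beside 5.04%. Dlx5 fell in the dimmest of 8 brightness groups of 1614 genes, where 36.8% were lower by 2-fold or more and the median difference was -0.63. In that group 1.73% of genes were as low as Dlx5 or lower. Set against P5, 2 of 5 ordered members (Dlx5 and Dlx6) were lower in Runx2+/- by 2-fold or more, beside 15.4% of all ordered genes, and 0 were higher, beside 8.67%. In its brightness group for that comparison, 1.46% of genes were as low as Dlx5 or lower.

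Dlx3 acts in placenta, epidermis, hair, tooth and bone, where it is made by osteoblasts. Its signals, 1652 ± 165, 1248 ± 125 and 2434 ± 243 at P5, P7 wild type and P7 Runx2+/-, made it the brightest of the 8 genes on each array. Scaled levels were 4.99, 5.78 and 4.29. The order of the arrays was the same as for Dlx5, with P7 wild type highest and Runx2+/- lowest. In Runx2+/-, Dlx3 was 1.49 log2 units below wild type at P7 and 0.70 below P5. Among the 1614 genes of the brightest group, 16.4% were lower by 2-fold or more and 10.1% were as low as Dlx3 or lower. With normexp background correction in place of the processed signal, the Dlx3 difference was -0.22, or -0.93 with median scaling, and it was then less than 2-fold. The median over all genes was 0.68 and -0.04 under these 2 settings, in that order. Dlx5 stayed at least 2-fold lower under each of the 12 settings tried, from -3.22 to -1.40. Some of these settings could not move it, because it has 1 probe well clear of the floor. They were the choice or averaging of probes, the changes of background filter, and leaving out saturated spots, of which there were 0.

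Of 7 epidermal and hair follicle markers, which mark the other tissue in which Dlx3 is prominent, 4, 1 and 3 were detected at P5, in wild type at P7 and in Runx2+/-. Krt14, Krt1 and Dsg3 were undetected throughout. Their summed scaled levels, 61.7, 51.7 and 16.6 in that order, came almost wholly from 1 Trp63 probe, at 5.84, 5.66 and 3.94 on the log2 scale, and the 3 other Trp63 probes were undetected on every array. Krt10, a keratin of the upper epidermis, was at least 0.65 higher in Runx2+/- than in wild type at P7. Krt5 and Krt15 had no order between the P7 arrays. Against P5, Krt5 was 13.2-fold lower and Krt15 at least 13.4-fold lower in Runx2+/-, while Krt10 was 1.41-fold higher. Between the wild-type arrays, Krt5, Krt15 and Krt10 were at least 3.63-fold, 2.28-fold and 1.11-fold lower at P7, in that order. The part of these markers in the Dlx3 difference was not tested.

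Dlx6, the partner of Dlx5, had signals of 88.7 ± 9.40 at P5, 15.9 ± 3.71 at P7 in wild type and 14.4 ± 3.50 at P7 in Runx2+/-. Only the P5 value was detected. Scaled levels were 0.77, -0.52 and -3.11. Relative to P5, Dlx6 was at least 2.44-fold lower at P7 in wild type and at least 14.7-fold lower in Runx2+/-. Both bounds were set by the probe's own undetected values, which lay above the floors of those arrays. The P7 arrays give no order for Dlx6. Of the 5 Dlx and Msx genes with an order between the wild-type arrays, Dlx6 was the 1 that was lower at P7 by 2-fold or more, beside 3.12% of all ordered genes. In the other direction 0 members passed 2-fold, beside 6.38% of all ordered genes. With normexp correction the Dlx6 bound shrank to -0.47, or -0.17 with median scaling, below 2-fold.

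Dlx6 shares its locus with antisense transcripts. At least 51 of the 60 Dlx6 probe bases match the opposite strand of Dlx6os2. The match runs from 1 base before the Dlx6os2 RefSeq start to 50 bases after it, where the searched window ended. The probe's remaining bases were not compared. The Dlx6os2 probe itself gave signals of 38.0 ± 4.7, 16.1 ± 3.44 and 27.4 ± 3.99, or scaled levels of -0.46, -0.50 and -2.18. Its 2 wild-type levels lay close together, and the Runx2+/- array was 1.68 log2 units (3.20-fold) below P7 wild type. The P7 wild-type level lay just above that array's floor of -0.69, so this difference rests on a dim value. Of all genes ordered between the P7 arrays, 13.9% were lower in Runx2+/- by 2-fold or more. The antisense transcripts Dlx6os1, Dlx1as and Dlx4os were undetected on all arrays. GABAergic neurons, in which Dlx5 and Dlx6 are also active, were checked by 5 markers. At P5, 3 of them were detected, and 0 on either P7 array. Gad1 and Gad2 were undetected throughout. The summed level, on the linear scale, was 2.52 at P5, and with 0 markers detected the P7 arrays give none. The part of these markers in the P5 level of Dlx6 was not tested.

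Dlx1, Dlx2 and Dlx4 showed no usable level. Dlx1 and Dlx2 specify forebrain interneurons and the upper jaw, and Dlx4 is known from placenta. The brighter Dlx1 probe gave 7.16, 2.94 and 13.1 on the arrays in the order above, and the other 3.17, 3.67 and 3.23. The second of these probes begins 91 bases before the RefSeq start of Dlx1, and all of its 60 bases lie before that start. Dlx2 gave 2.37, 2.83 and 2.66, and Dlx4 gave 2.55, 2.90 and 4.03. None of these values was flagged as well above background, so they have no order.

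Msx1, known for its roles in tooth and palate, had signals of 221.0 ± 22.2 at P5, 163.7 ± 16.6 at P7 in wild type and 859.1 ± 86.0 in Runx2+/-. After scaling these were 2.09, 2.85 and 2.79. The P5 array was low, and the P7 arrays differed by -0.06. Msx1 was 0.76 higher at P7 than at P5 in wild type and 0.70 higher in Runx2+/-. The raw Runx2+/- signal was 5.25-fold the wild-type signal at P7, on arrays that differ in brightness as given above, and is not read as a difference in level.

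Msx2 had signals of 69.7 ± 7.51, 54.9 ± 6.44 and 322.8 ± 32.4, and scaled levels of 0.42, 1.27 and 1.38. The pattern was that of Msx1, with the P5 array low and the P7 arrays 0.11 apart. Msx2 was 0.85 higher at P7 than at P5 in wild type and 0.96 higher in Runx2+/-. Both P7 differences were smaller than the spread between spots. The Msx1 difference ranged from -0.28 to 0.95 and the Msx2 difference from -0.17 to 0.55 over the settings tried, so neither gene had a settled direction.

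**Figure D2:**
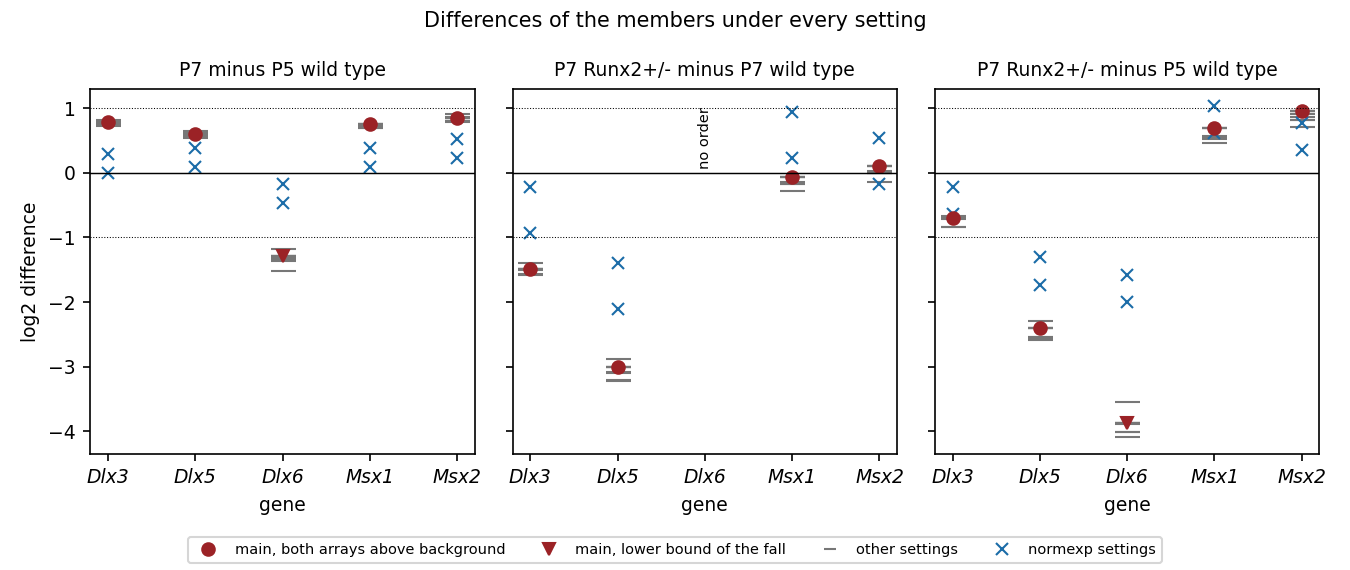
Log2 differences in scaled level of the members in 3 panels: wild type at P7 against P5, the P7 genotypes, and Runx2+/- against P5. Red circles are measured values, red triangles bounds, dashes other settings and crosses the normexp settings. Dlx5 (-3.0) and Dlx3 (-1.49) lie below -1 between the P7 arrays, while Msx1 (-0.06) and Msx2 (0.11) lie near 0.

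Setting 2 genes against each other on the same pair of arrays cancels any constant scaling of an array. From wild type to Runx2+/- at P7, Dlx5 was 8.64-fold lower relative to Msx2 and 7.71-fold lower relative to Msx1. Dlx3 was 3.02-fold lower relative to Msx2, and Dlx5 2.86-fold lower relative to Dlx3. Msx2 and Msx1 stayed within 1.12-fold of each other. From P5 to P7 in wild type, the same pairs differed by at most 1.18-fold. The unequal change of Dlx5 and Msx2 between the P7 arrays ranged from -3.21 to -1.94 log2 units over the settings, and that of Dlx3 and Msx2 from -1.59 to -0.76.

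The median of the 4 members measured on both wild-type arrays was 0.78, beside 0.08 over the 12868 genes so measured. These 4 differences, 0.61 to 0.85, exceeded the spread between spots and between probes of a gene. In its brightness group, each member stood at or above 85.4% (Dlx5) to 95.7% (Dlx3) of genes. With normexp correction and the 75th percentile the 4 differences were 0.003 to 0.23, within the spot SD of 0.236, and the median of all genes then moved to -0.26. For Runx2+/- against wild type at P7 the member median was -0.77, beside 0.10 over 12910 genes, and it stands between the 2 Dlx and the 2 Msx genes rather than describing either. The age and genotype comparisons share 1 array, wild type at P7, and so are not independent. Set against P5 wild type, which leaves that array out, Dlx5 was -2.40, Dlx3 -0.70, Msx1 0.70 and Msx2 0.96. Within transcripts that have several probes, the difference moved by a median of 0.140 log2 units per kb towards the 3′ end between the P7 arrays and 0.350 per kb for Runx2+/- against P5. Member probes begin at base 2296 (Dlx3), 1088 (Dlx5), 1296 (Msx1) and 2034 (Msx2) of their transcripts, and the part of position in their values was not tested.

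**Figure D3:**
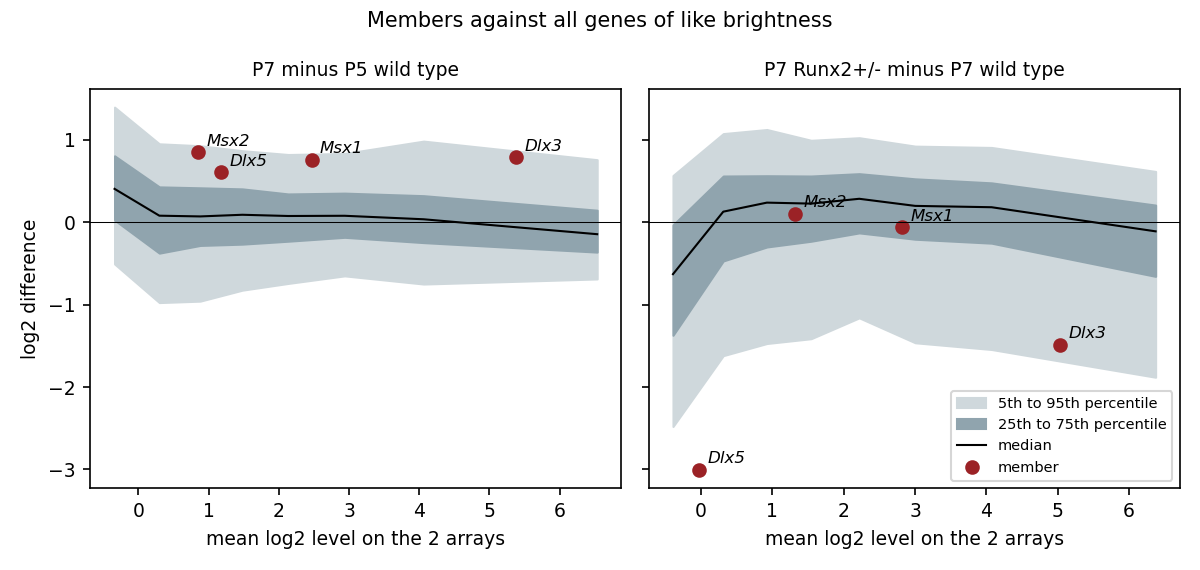
Log2 difference against the mean scaled level of the 2 arrays, for wild type at P7 minus P5 (left) and Runx2+/- minus wild type at P7 (right), with red points for members, a line for the median of each of 8 brightness groups and bands for their percentiles. On the right Dlx5 lies in the dimmest group, whose median is -0.63, and Dlx3 in the brightest, whose median is -0.11.

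Bone genes reported as targets of Dlx or Msx proteins were read, together with osteoblast identity genes, from a list of 12. Between the P7 arrays 10 of the 12 were lower in Runx2+/- by 2-fold or more, beside 13.9% of all ordered genes. Of the same list 0 were higher, beside 5.04%, and the median was -1.90, beside 0.10 over all genes. Dmp1, a matrix protein of osteocytes, was at -2.66. Bglap2 (osteocalcin) was at -2.49 and Col1a1, the main bone collagen, at -2.48. Runx2 was -0.38 and Ibsp -0.97, the members of the list that were not 2-fold apart. From P5 to P7 in wild type, 1 of the 12 was higher by 2-fold or more, Dmp1 at 1.22, beside 6.38% of all ordered genes. In the other direction 0 passed 2-fold, beside 3.12%, and the median was 0.55. The 6 osteoblast markers are all part of that list of 12 and so are no separate readout. Their summed levels, on the linear scale, were 835 at P5, 1308 at P7 in wild type and 258 in Runx2+/-. Dlx5 and Dlx3 were thus lowest on the array on which these markers were lowest. Osteoclast markers were low there too. Of the 5 that had an order, 4 were lower in Runx2+/- at P7 by 2-fold or more, beside 13.9% of all ordered genes. The median of the 5 was -2.74, beside -2.29 for the osteoblast markers. In whole tissue, fewer cells of a type and less RNA per cell cannot be told apart, and the part of either cell type in the Dlx5 and Dlx3 values was not tested.

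Bmp ligands, receptors, Smads and inhibitors, of the pathway that acts upstream of Msx and Dlx genes, were read from a list of 21. That list also holds direct targets of the pathway, Id1, Id2 and Id3, which are not upstream genes. Between the P7 arrays 13 were measured on both. Of these, 1 was higher by 2-fold, the Bmp signal transducer Smad5 at 1.01, beside 5.04% of all ordered genes. In the other direction 0 were lower by 2-fold, beside 13.9%. The list median was 0.25, with the targets Id1 (0.22), Id2 (0.60) and Id3 (0.83) among the 13. From P5 to P7, 0 of 13 measured genes were 2-fold apart, beside 6.38% of all ordered genes higher and 3.12% lower. The median was 0.00.

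Of 6 known partners and genetic interactors, 5 had an order between the P7 arrays. Among these, 1 was lower in Runx2+/- by 2-fold (13.9% of all ordered genes), Twist1, the mesenchymal repressor of Runx2 function, at -1.0, and 0 were higher. The median over the 5 genes measured on both arrays was 0.52, and Ndn, a Maged1 relative, was at 0.84. From P5 to P7 in wild type 0 of the 5 ordered genes passed 2-fold, beside 6.38% of all ordered genes higher and 3.12% lower. The median was 0.06.

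Other homeobox genes of the cranium gave 19 entries, of which 11 had an order between the P7 arrays. Of these, 2 were lower in Runx2+/- by 2-fold or more, beside the same 13.9% of all ordered genes, Meis2 at -2.09 and Lhx6 at -1.98, and 0 were higher. The median was 0.29. The other probes of Lhx6 were undetected in wild type at P7. Dlx3 had no second probe with which to make that comparison. Hand1, Hand2 and Gbx2, known targets of Dlx5 and Dlx6 in the jaw, were undetected throughout.

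**Figure D4:**
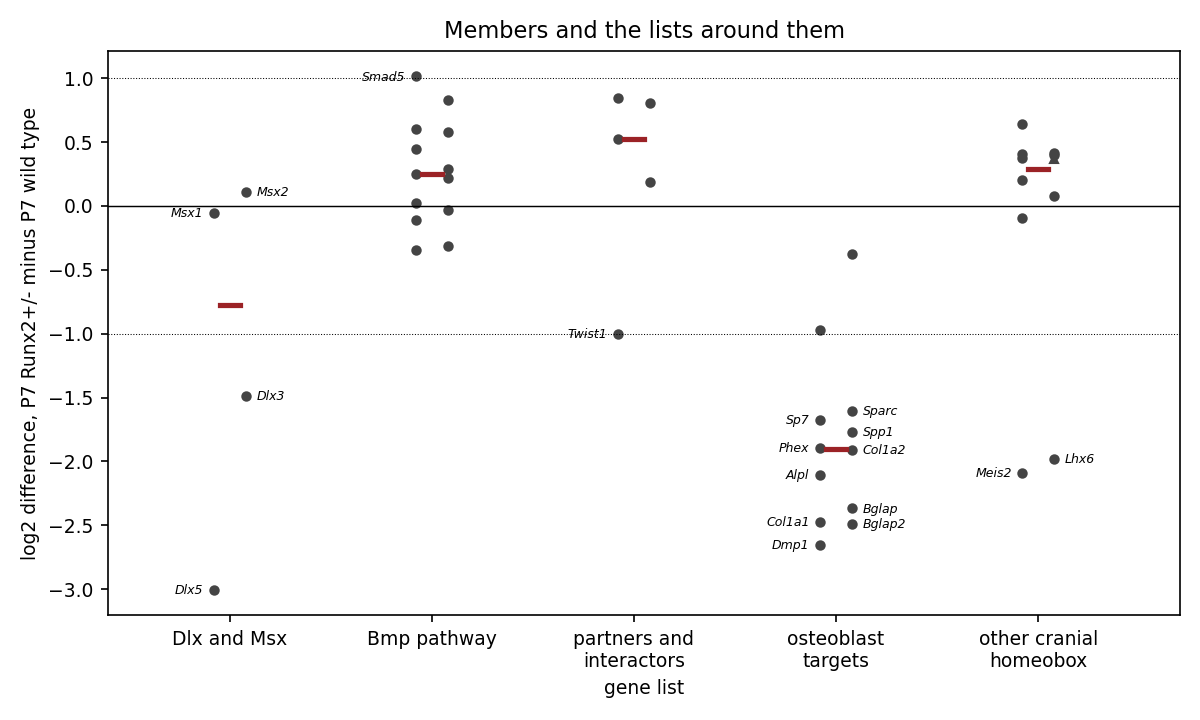
Log2 difference between the P7 arrays (Runx2+/- minus wild type) for the Dlx and Msx genes and the 4 gene lists, 1 point per gene, triangles for bounds, and the list median as a short line. The osteoblast targets, a list that also holds osteoblast identity genes, have a median of -1.90 and the Bmp pathway 0.25. Dlx5 lies lower than any gene of that osteoblast list, whose lowest value is -2.66 (Dmp1).

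Genes with the most similar pattern were found by the root-mean-square distance over the 3 arrays, after centring, among 9371 genes detected on all of them. For Dlx3 they were Hcn2 (0.005 log2 units), Fcrl5 and Lhfpl4. For Dlx5 the nearest were Pxmp4 (0.086), Tm4sf5 and Srp54b, and for Msx1 Cox6b2, Wdr33 and Fnbp1. Msx2 was nearest to C1qtnf6, Parp3 and Mfap2. With 3 arrays many genes lie close to any pattern, so these names describe the arrays only.

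Promoter windows from RefSeq (GRCm38.p6), the 250 bases before the start, were found for 4 of the 8 genes. Those of Msx1 and Msx2 are shown because these 2 genes had like differences. Capitals mark CCAAT on either strand (ATTGG on the other) and TAATTA, the core homeodomain site.
Msx1, chr5:37824586-37824835, minus strand: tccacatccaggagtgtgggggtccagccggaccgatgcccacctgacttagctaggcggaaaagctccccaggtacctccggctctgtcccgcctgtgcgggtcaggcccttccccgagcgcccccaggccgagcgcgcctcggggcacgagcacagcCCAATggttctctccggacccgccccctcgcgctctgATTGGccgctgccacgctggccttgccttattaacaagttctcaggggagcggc
Msx2, chr13:53472781-53473030, minus strand: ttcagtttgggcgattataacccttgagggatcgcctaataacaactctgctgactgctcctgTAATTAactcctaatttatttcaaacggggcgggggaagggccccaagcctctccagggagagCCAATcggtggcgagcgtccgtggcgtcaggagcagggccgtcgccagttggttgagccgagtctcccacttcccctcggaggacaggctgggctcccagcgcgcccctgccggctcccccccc
CCAAT was found 91 and 54 bases before the Msx1 start, 124 bases before that of Msx2 and 74 bases before that of Dlx2, and in 33.8% of 32851 windows of that length. TAATTA was found 187 bases before the Msx2 start and in 4.84% of windows. Searched on both strands, TGTGGT, the Runx core, was in 14.0% of windows and TATAAA in 12.4%, and neither was in the 4 windows of these genes. GC content was 68.0% for Msx1 and 61.6% for Msx2.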

How the data were processed

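Each group's total RNA was labelled with Cy3 for 1 Agilent array, per the labels' protocols. Feature Extraction read the images; the file headers name its version as 10.7.1.1, while the submitters' processing notes name 9.5.1.1. As measurements the authors deposited a background-corrected processed intensity on a linear scale, its error, and the p-value that compares each spot with background, per the file headers. They also deposited a table of processed intensity values, with a median of 12.59 in each column, which served as an alternative; how it was scaled and centred is not given in the sources used here.

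Control spots and 111, 163 and 128 outlier spots were left out, spots of a probe were averaged on the log2 scale, and each array's 75th percentile was subtracted. There were 0 saturated spots. The brightest probe stood for its gene. Genes detected on both arrays got a difference. For those detected on 1 array only, the bound was taken against the higher of the other array's floor and the probe's own value. At least 2-fold was counted. RefSeq accessions named 27234 probes. R 4.3.3 with limma 3.58.1 computed the normexp alternative (offset 50). All arrays were scanned on 1 day.

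The 8 members, the 18 lists (147 entries, 139 on the array) and the rule for named genes (list members at least 2-fold apart, up to 4 per list and comparison, Runx2, and the 3 nearest patterns per member) were chosen with earlier results of these data known. Genes given as exceptions, as second probes or as not above background were named after their values were seen. Some list genes are not reported here and were left out of the lists' counts and medians. The calculation was run on simulated arrays that all had the P5 profile and the P5 detection flags. That run could not exercise the bounds or the unequal floors of the 3 arrays. Marker lists other than those in the report had these summed levels, undetected markers included at their measured values, on the P5, P7 wild-type and Runx2+/- arrays: suture mesenchyme 47.0, 73.0 and 81.9, osteoclast 150, 304 and 136, chondrocyte 13.7, 28.1 and 44.0. These sums are linear, so bright markers weigh most. Of 5 measured suture mesenchyme markers, 2 were at least 2-fold lower in Runx2+/- than in wild type at P7, beside 13.9% of all ordered genes. In that comparison 0 were higher, beside 5.04%. The 2 Zic1 probes gave 0.33 and -1.14 there. Neuron and glia markers had 279, 254 and 66.0, leptomeninges 58.5, 15.4 and 11.9, and skeletal muscle 7.23, 4.76 and 4.44. The neuron and glia sum came almost wholly from 1 Snap25 probe, at 8.06, 7.96 and 5.92 on the log2 scale. Of 6 such markers ordered between the wild-type arrays, Tubb3 (4.02-fold) and Stmn2 (4.03-fold) were at least 2-fold lower at P7, beside 3.12% of all ordered genes. In the other direction 0 passed 2-fold, beside 6.38%. Neutrophil markers had 824, 70.8 and 326, endothelium 113, 110 and 184, and erythroid 350, 240 and 139. Of 6 ordered endothelium markers, 4 were at least 2-fold higher in Runx2+/- than in wild type at P7, beside 5.04% of all ordered genes. The 1 marker at least 2-fold lower, beside 13.9%, was Kdr, whose 2 probes gave -1.97 and 1.87.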

Additional observations from a re-analysis of the deposited data

How the results depend on the processing

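With 1 array per group there is no replicate error, and differences rest on single probes. No paired analysis was possible because each group has 1 array. Over 1003 values recomputed under other settings, 797 stayed within the error used, 206 moved further and 0 reversed a called direction. This tally includes settings that could not change a value, such as leaving out saturated spots, of which there were 0. The 2-fold lower call of Dlx5 in Runx2+/- held under all 12 settings, some of which could not change it. Among the scalings, normexp moved the median of all genes furthest, to -0.26 (age) and 0.68 (genotype) with 75th-percentile scaling; the cause was not tested. Under them 0 members (75th percentile) and 0 (median) were at least 2-fold lower at P7 than at P5, as with a 3-fold threshold (0), and 1 and 1 in Runx2+/- at P7, as with a 3-fold threshold (1). Member medians under the same 2 settings were 0.092 and 0.39 for age, 0.17 and -0.55 for genotype. Against P5, the 75th-percentile setting gave 0.28 and 1 member at least 2-fold higher. Without the background filter, 2 members were higher at P7, beside 13667 of 35019 genes, and 5 were lower in Runx2+/-, beside 16687. Member medians were then -1.73 (genotype) and -0.64 (against P5), beside -0.84 and -0.51 over all genes. A 1.5-fold threshold gave 4 members higher at P7, beside 2305 of 14208 genes, and 2 higher against P5, beside 4392 of 18146.

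Over all genes, calls higher and lower were 907 and 444 for age, 721 and 1988 for genotype, and 1573 and 2788 against P5. With normexp and the 75th percentile they were 32 and 936 for age and 4338 and 536 for genotype, so the higher share went from 67.1% to 3.31% and from 26.6% to 89.0%. With normexp and the median, age gave 152 and 284 (34.9%). Against P5 the higher share was 36.1%, and 69.6% and 9.56% with the 2 normexp settings, 23.6% and 23.4% with scaling on probes detected on all arrays. Those settings called 1607 higher and 703 lower, 309 and 2923, 1028 and 3324, and 1018 and 3340 genes, in that order, and genotype with normexp and the median 476 and 2109. Without the filter, age gave 13667 and 1465, genotype 1738 and 16687, and the comparison with P5 2747 and 13788. A stricter filter left 529 genes higher for age. At 1.5-fold the counts were 2305 and 1568, 2781 and 3037, and 4392 and 4533 for the 3 comparisons, and at 3-fold 318 and 117, 97 and 1054, and 232 and 1161.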

Other observations

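The genes next to each locus were read from the RefSeq order, 3 on each side, a choice made after the member values were seen. Between the P7 arrays, the Dlx5 and Dlx6 locus had 5 neighbours with an order. Of these, 2 were at least 2-fold lower in Runx2+/-, beside 13.9% of all ordered genes, and 0 higher, beside 5.04%. The Msx1 locus gave the same counts, 2 lower and 0 higher of 5. Tac1, which encodes the neuropeptide substance P precursor, was at -2.50, and Slc25a13, a mitochondrial carrier, at -1.39. Asns was at -0.64, Dync1i1 at -0.17 and Sem1 at 0.16. Beside Msx1, whose own difference was -0.06, Cytl1, a secreted cartilage protein, was at -2.63 and Zbtb49 at -1.56. Near Dlx3 and Dlx4, 4 neighbours had an order and 0 were 2-fold apart. Itga6, an integrin beside Dlx1 and Dlx2, was at 1.45, and Nfil3 beside Msx2 at 1.02.

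Msx3, the remaining Msx gene, known from the dorsal neural tube, had 1 probe detected in Runx2+/- alone, with signals of 10.9, 6.07 and 21.4 at P5, at P7 in wild type and in Runx2+/-, and no order between them.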
